A study of Mus musculus with 6 samples.

Results

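The genes described here are 9 interferon-stimulated genes, Stat2, Irf9, Irf1, Irf7, Isg15, Ifit1, Ifit3, Bst2 and Ifi27, taken by symbol from a table of 47967 genes. All 9 had a row in the table and all 9 passed the filter on low counts, which 15347 genes passed in all. RNA was sequenced from gastrocnemius, the main calf muscle, of male C57BL/6 mice aged 20 to 24 weeks. The high phosphate group (HP, 3 libraries) ate a diet with 2.0% inorganic and 2.3% total phosphate for 12 weeks. The normal phosphate group (NP, 3 libraries) ate a diet with 0.6% inorganic and 0.9% total phosphate for the same 12 weeks. Sodium (0.9%), calcium (1.9%), magnesium (0.3%) and potassium (1.8%) were equal in both diets. The labels number the libraries 1 to 3 in each diet and do not say whether a library is 1 mouse or a pool, so the p-values reflect the spread among these libraries alone, and that spread may be technical.

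Interferons are secreted proteins that cells release on sensing viral or bacterial nucleic acids. Type I interferons bind the receptor Ifnar1 and Ifnar2, whose kinases Jak1 and Tyk2 phosphorylate Stat2 among others. Stat2 joins Irf9 in a complex named ISGF3, which binds interferon-stimulated response elements (ISRE) in the promoters of interferon-stimulated genes. Interferon-gamma, made mostly by T cells and natural killer (NK) cells, acts through Ifngr1, Ifngr2, Jak1 and Jak2 and leads to binding at gamma-activated sites (GAS). Muscle tissue holds fibres together with macrophages, endothelial cells, fibroblasts and other cells, and all of them can express interferon-stimulated genes.

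The promoter was looked up for each gene in RefSeq (GRCm38.p6), from 250 bases before to 50 bases after its start. Of the 9 genes, 8 had an entry, with 2 entries each for Irf1 and Irf9, and Ifi27 had none. A gene was counted if any of its entries matched, whereas the shares of all promoters are per entry. The ISRE core, searched on both strands as GAAA, any 2 bases and GAAA, with overlapping matches counted, was found in 5 of the 8, namely Isg15, Stat2, Ifit1, Ifit3 and Bst2, beside 3.44% of all 32851 promoters in the table. The GAS motif, searched as TTCNNNGAA, which is its own reverse complement, was found in Irf1 and Bst2, or 2 of the 8, beside 8.3% of all promoters. In Irf1 it was in 1 of the 2 entries. Neither string of letters was in the windows of Irf7 and Irf9. The 90-base stretches around the matches are shown, and whether the genes respond through these matches was not tested. They run 5′ to 3′ along the gene's strand, with the matched bases in capitals. Isg15 has 3 overlapping matches, beginning 78, 72 and 66 bases before the start, Bst2 has 2 overlapping ones, and Ifit1 and Ifit3 have 2 separate ones each. The capitals mark the GAS motif in Irf1 and the ISRE core in the other genes. In Bst2 the GAS match overlaps the ISRE match farther from the start, and only the shared bases of it are in capitals. A match describes the letters and does not show that a factor binds there.
Isg15 (chr4:156200841-156200930, minus strand): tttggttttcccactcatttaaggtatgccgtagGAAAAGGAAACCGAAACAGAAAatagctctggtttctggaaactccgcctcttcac
Bst2 (chr8:71537550-71537639, minus strand): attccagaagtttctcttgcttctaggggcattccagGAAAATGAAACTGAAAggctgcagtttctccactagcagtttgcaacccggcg
Ifit1 (chr19:34640754-34640843, plus strand): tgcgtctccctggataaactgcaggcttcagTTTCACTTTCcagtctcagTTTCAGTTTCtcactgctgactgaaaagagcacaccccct
Ifit3 (chr19:34583350-34583439, plus strand): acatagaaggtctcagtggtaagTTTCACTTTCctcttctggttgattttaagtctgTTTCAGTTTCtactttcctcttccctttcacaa
Stat2 (chr10:128270248-128270337, plus strand): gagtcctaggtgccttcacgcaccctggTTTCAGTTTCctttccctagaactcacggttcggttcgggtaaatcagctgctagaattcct
Irf1 (chr11:53769883-53769972, plus strand): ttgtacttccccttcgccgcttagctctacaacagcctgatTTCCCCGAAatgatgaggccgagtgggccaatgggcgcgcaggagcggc

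Of the 9 genes, 3 fell in HP muscle (Isg15, Bst2 and Ifi27), 0 rose and 6 did not pass the test. The test was edgeR's quasi-likelihood F test with Benjamini-Hochberg adjustment over all 15347 genes, and calls needed an adjusted p under 0.05. The diets differed across the whole table: 49.3% of all genes tested were called, 23.0% higher and 26.3% lower in HP. The share of the 9 genes called lower, 33.3%, is therefore close to the background. The same 3 genes were those with every HP library below every NP library, which held for 32.1% of all genes tested. All 9 log2 fold changes (HP over NP) were negative, as were those of 7852 of the 15347 genes tested. The median was -0.64 for the 9 genes, against -0.016 over all genes tested. In HP replicates 2 and 3 all 9 genes were below all 3 NP libraries, which held for 35.4% of all genes tested. HP replicate 1 was the highest HP library for all 9 genes (36.0% of all genes tested), and for 6 of the 9 it reached above at least 1 NP library. In bulk tissue, fewer cells of a type and less RNA per cell cannot be told apart.

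**Figure D1:**
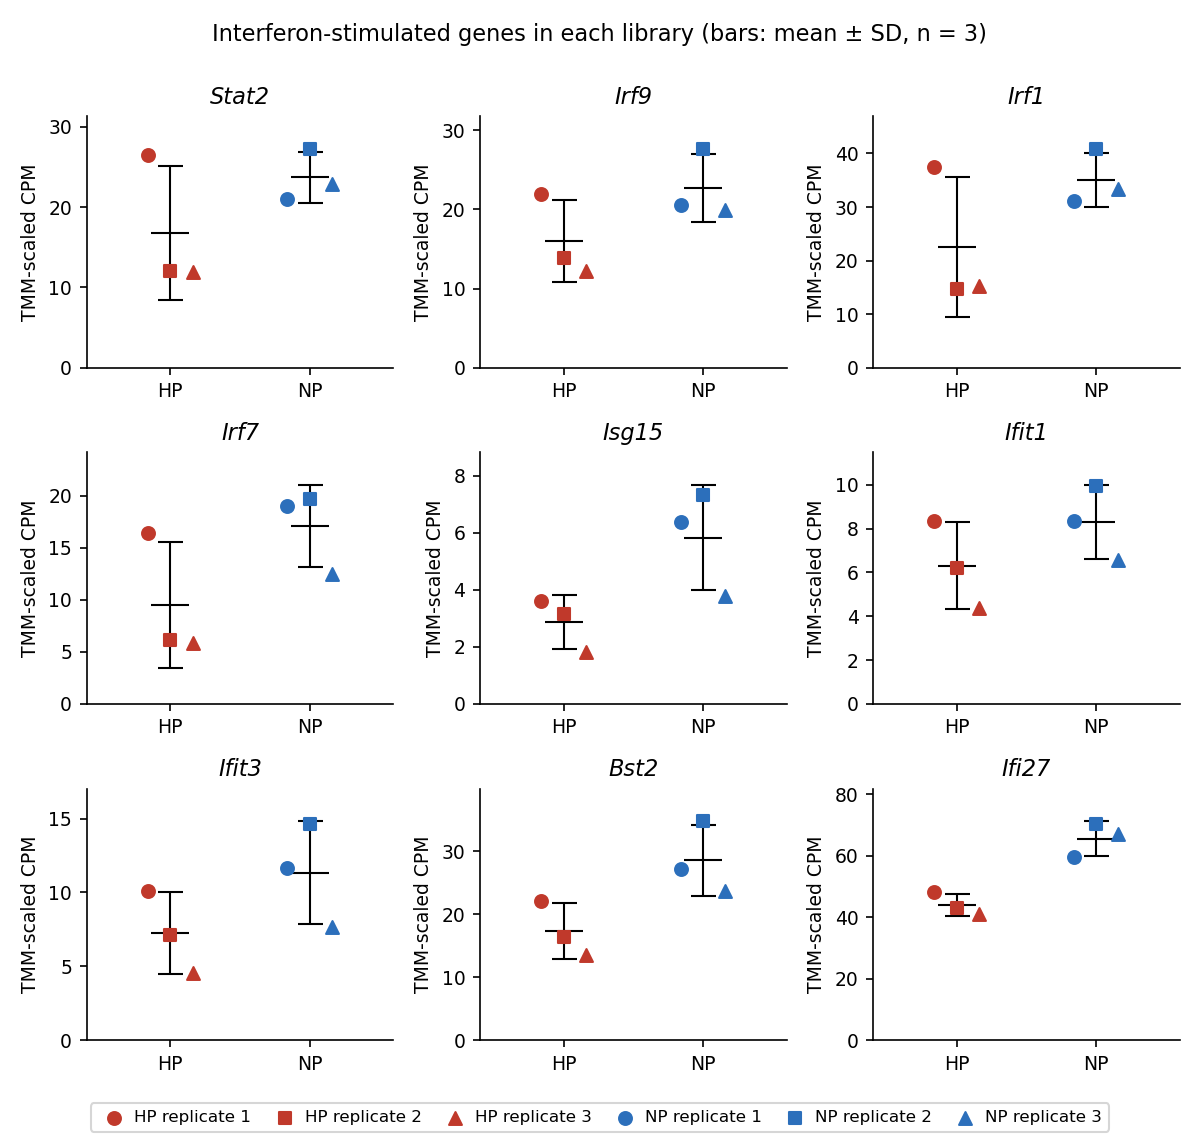
Expression of the 9 interferon-stimulated genes in each library, in CPM (counts relative to the library total, scaled with TMM factors), HP left of NP, with 1 symbol per replicate number and bars for the mean and SD over 3 libraries. HP replicate 1 is the highest HP point in all 9 panels (36.0% of all genes tested). NP replicate 2 is the highest of all 6 points in all 9 (31.5% of all genes tested).

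Stat2, the signal transducer that the type I receptor phosphorylates, lies on chromosome 10 (10:128270559-128292849, plus strand, GRCm38). It had 26.5, 12.0 and 11.9 CPM in HP replicates 1, 2 and 3, against 21.1, 27.2 and 22.8 CPM in NP replicates 1, 2 and 3. HP replicate 1 was above NP replicates 1 and 3, so the diets overlapped. The log2 fold change was -0.49 ± 0.31 (SE, n = 3 each; edgeR adjusted p = 0.215). Irf9, the DNA-binding partner in ISGF3 (14:55603571-55610030, plus strand), had 21.9, 13.9 and 12.2 CPM in HP libraries, against 20.5, 27.6 and 19.95 CPM in NP libraries. It too was higher in HP replicate 1 than in NP replicates 1 and 3. Its log2 fold change was -0.50 ± 0.23 (SE, n = 3 each; edgeR adjusted p = 0.0953). Of its exonic bases, 2.28% also belong to Rnf31 on the same strand.

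Irf1 and Irf7 are transcription factors induced by interferon. Irf1 carries the interferon-gamma response onward, and Irf7 amplifies the production of type I interferon. Irf1 (11:53770014-53778374, plus strand) had 37.5, 14.7 and 15.2 CPM in HP replicates 1 to 3, against 31.1, 40.8 and 33.4 CPM in NP replicates 1 to 3. HP replicate 1 was 2.47 times the level of the next HP library, the other HP libraries lay below every NP library, and the diets overlapped. For Irf1 the log2 fold change was -0.64 ± 0.37 (SE, n = 3 each; edgeR adjusted p = 0.19). Irf7 (7:141262706-141266481, minus strand) had 16.5, 6.17 and 5.82 CPM in HP libraries, against 19.0, 19.7 and 12.5 CPM in NP libraries. Of the NP libraries, replicate 3 alone was below HP replicate 1, which was 2.67 times the next HP library. The log2 fold change of Irf7 was -0.84 ± 0.42 (SE, n = 3 each; edgeR adjusted p = 0.132). Small stretches of both genes overlap a gene on the opposite strand (Gm17334 with 3.4% of the exonic bases of Irf1, Phrf1 with 1.19% of those of Irf7). The strand setting of the counting is not given in the sources used here, so reads there cannot be told apart.

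Among the effector genes, Isg15 and Bst2 fell. Isg15 encodes a ubiquitin-like protein that is attached to other proteins (4:156199424-156200818, minus strand). It had 3.62, 3.16 and 1.82 CPM in HP replicates 1 to 3, against 6.36, 7.33 and 3.77 CPM in NP replicates 1 to 3. Every HP library was below every NP library, although HP replicate 1 and NP replicate 3 nearly met. The log2 fold change was -1.02 ± 0.31 (SE, n = 3 each; edgeR adjusted p = 0.0237), equal to 2.02-fold lower in HP. Bst2, or tetherin, holds budding enveloped viruses at the cell surface (8:71534255-71537456, minus strand). It had 22.1, 16.4 and 13.4 CPM in HP libraries, against 27.2, 34.7 and 23.6 CPM in NP libraries. The diets did not overlap, but HP replicate 1 and NP replicate 3 again came close. Its log2 fold change was -0.72 ± 0.20 (SE, n = 3 each; edgeR adjusted p = 0.0169).

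Ifi27, which encodes a small interferon-inducible membrane protein, was the most evenly lowered of the 9 genes (12:103434211-103440239, plus strand). It had 48.0, 43.0 and 41.1 CPM in HP replicates 1 to 3, against 59.4, 70.2 and 67.1 CPM in NP replicates 1 to 3. The diets were well apart, and HP replicate 1 was 1.12 times the next HP library. The means were 44.0 ± 3.57 CPM in HP and 65.6 ± 5.54 CPM in NP (SD, n = 3 each). The log2 fold change was -0.57 ± 0.11 (SE, n = 3 each; edgeR adjusted p = 0.00271), the smallest adjusted p among the 9 genes.

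Ifit1 and Ifit3 lie near each other on chromosome 19 and encode proteins that act against viral RNA. In human cells the IFIT3 protein stabilises IFIT1. Ifit1 (19:34640871-34650009, plus strand) had 8.34, 6.22 and 4.36 CPM in HP replicates 1 to 3, against 8.35, 9.96 and 6.59 CPM in NP replicates 1 to 3. Ifit3 (19:34583531-34588731, plus strand) had 10.1, 7.13 and 4.57 CPM in HP libraries, against 11.6, 14.6 and 7.69 CPM in NP libraries. Both genes were lower in HP replicates 2 and 3 than in any NP library, and HP replicate 1 lay above NP replicate 3 for both. The log2 fold changes were -0.39 ± 0.24 for Ifit1 and -0.64 ± 0.31 for Ifit3 (SE, n = 3 each; edgeR adjusted p = 0.205 and 0.122). Ifit3 has a near-identical neighbour, Ifit3b: 51.24% of the 50-base stretches of Ifit3 transcripts also occur there, so its count is uncertain. For Ifit1 the shared stretches, with Ifit1bl1 and Ifit1bl2, came to 7.13%. Ifit3b itself, named after its values were seen, had 8.89, 5.50 and 3.22 CPM in HP libraries, against 5.10, 4.71 and 2.45 CPM in NP libraries. Its log2 fold change was 0.53 ± 0.39 (edgeR adjusted p = 0.286), and it was negative, -0.22, on the FPKM values.

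**Figure D2:**
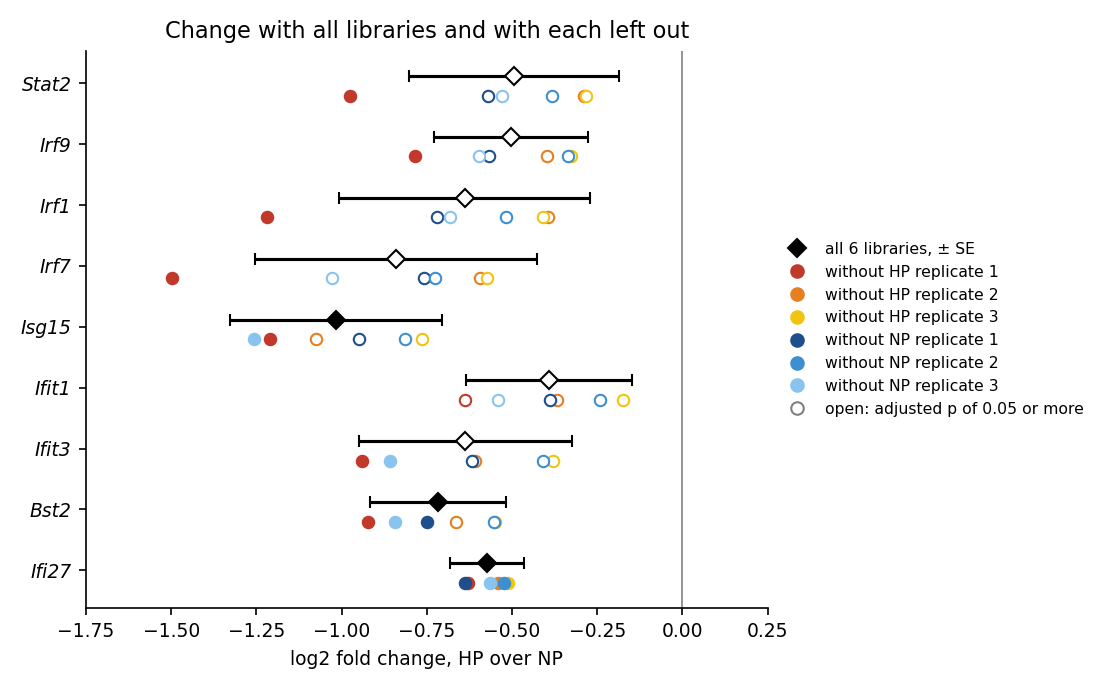
Log2 fold changes, HP over NP, of the 9 genes from edgeR, from all 6 libraries (diamonds, with SE) and with each library left out in turn (circles); filled symbols passed an adjusted p under 0.05. All symbols are negative, with 3 of 9 genes past the threshold from all libraries and 8 of 9 without HP replicate 1.

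Single libraries decided much of this count. Without HP replicate 1, 8 of the 9 genes were called lower, against 21.1% of all genes tested in that fit, and Ifit1 (log2 fold change -0.64, edgeR adjusted p = 0.0668) was the exception. The log2 fold changes were then -0.98 for Stat2, -0.79 for Irf9, -1.22 for Irf1 and -1.50 for Irf7. HP replicate 1 was the highest HP library for all 9 genes, so the fit without it is no independent test of them. Without HP replicate 2, HP replicate 3 or NP replicate 2, 1 gene was called lower each time, and it was Ifi27 (backgrounds of 21.6%, 21.2% and 22.2%). Without NP replicate 1 the count was 2, against 25.8% of all genes tested, and without NP replicate 3 it was 4, against 24.1%. Ifi27 was called without each of the 6 libraries in turn. Isg15 lost its call without HP replicate 2 (adjusted p = 0.0525), HP replicate 3 (0.0773), NP replicate 1 (0.0635) or NP replicate 2 (0.0744), all from edgeR. For Bst2 this held without HP replicate 2 (0.0592), HP replicate 3 (0.0581) or NP replicate 2 (0.0527), also from edgeR.

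The scaling between libraries also mattered. The 10 most abundant genes of each library held 21.5% to 24.0% of counts in HP libraries, against 13.0% to 16.2% in NP libraries. TMM factors were 0.795 to 0.882 in HP and 1.10 to 1.29 in NP. Scaled by library size alone, all 9 genes were called lower, with a median log2 fold change of -1.14, but so were 51.4% of all genes tested, whose median moved to -0.49. Relative to the median of all genes, the median of the 9 genes was about as low under library size alone as under TMM.

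Per length, as deposited FPKM, the order of levels was similar in the 2 diets. Ifi27 was highest, at 36.0 ± 2.10 FPKM in HP and 67.3 ± 12.1 FPKM in NP (SD, n = 3 each). Bst2 followed with 14.8 ± 3.06 FPKM in HP and 34.2 ± 9.10 FPKM in NP, and Irf1 with 6.61 ± 3.40 FPKM in HP and 15.7 ± 3.63 FPKM in NP. Ifit3 stood at 4.04 ± 1.65 FPKM in HP and 8.01 ± 2.94 FPKM in NP. Irf7, Isg15, Stat2, Irf9 and Ifit1 had means of 1.61 to 2.69 FPKM in HP and 2.96 to 7.01 FPKM in NP. From Irf1 downward in HP and from Ifit3 downward in NP, each gene differed from the next in the order by less than the larger of their SDs.

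The 9 genes moved together across the 6 libraries, as a description of profiles that share the same libraries and the diet difference. Over the 36 pairs, Pearson's r of log2 CPM was 0.690 to 0.997 with a median of 0.904. Stat2 and Irf1 were the most alike pair, and Ifi27 and Ifit1 the least. Of 12507 genes outside the pathway lists, 239 (1.91%) had an r of at least 0.9 over the 6 libraries with the mean profile of the 9. The closest 4 were Slamf8 (0.999), Ccnl1 (0.994), Fcgr4 (0.991) and B2m (0.983). Slamf8 and Fcgr4 are receptors of macrophages and other myeloid cells, and B2m is the light chain of class I histocompatibility molecules. Ccnl1 changed little between the diets (log2 fold change -0.14, edgeR adjusted p = 0.238). Slamf8 and Fcgr4 were not called either (edgeR adjusted p = 0.0591 and 0.165). Both had few reads in HP replicates 2 and 3, with 13 and 9 counts for Slamf8 and 4 and 2 counts for Fcgr4. B2m had 330, 224 and 184 CPM in HP replicates 1 to 3, against 426, 525 and 391 CPM in NP replicates 1 to 3, and fell by 0.86 ± 0.23 on the log2 scale (edgeR adjusted p = 0.0118). In B2m the diets did not overlap. It was chosen for a profile like that of the 9 genes, so its peak in HP replicate 1 among HP libraries adds no support. B2m lost its call without HP replicate 2 or HP replicate 3 (edgeR adjusted p = 0.0514 and 0.0533).

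The rest of the pathway was described from 8 lists with 142 genes, of which 117 were tested. Of these, 62 (53.0%) were called lower and 5 (4.27%) higher in HP, beside 26.3% and 23.0% of all genes tested. The median log2 fold change was -0.72, against -0.016 over all genes tested. The shares of 26.3% and 23.0% are the background for each list below. The ligands were too scarce to test: 18 of 21 interferon genes had 0 counts in all 6 libraries. Ifng had 1, 0 and 0 counts in HP replicates 1 to 3, against 3, 5 and 1 counts in NP replicates 1 to 3. These counts are too few to compare.

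Of 9 genes tested in the list of receptors and their signalling partners, 4 fell and 3 rose. Both chains of the type I receptor fell. Ifnar1 had 19.6, 23.8 and 22.1 CPM in HP replicates 1 to 3, against 39.5, 54.2 and 36.7 CPM in NP replicates 1 to 3, and the diets did not overlap (log2 fold change -0.99 ± 0.16, edgeR adjusted p = 0.00137). Ifnar2 fell by 1.24 ± 0.16 and Il10rb, a shared chain of the interferon-lambda and interleukin-10-family receptors, by 1.13 ± 0.16 on the log2 scale (edgeR adjusted p = 0.000642 and 0.000852). For Ifngr1, the ligand-binding chain for interferon-gamma, the log2 fold change was -0.49 ± 0.17 (edgeR adjusted p = 0.0359), and the call was lost without HP replicate 1 (0.132), HP replicate 3 (0.116) or NP replicate 2 (0.114). Jak2, a kinase of interferon-gamma signalling, rose. It had 122, 82.9 and 84.4 CPM in HP libraries against 47.9, 46.1 and 52.2 CPM in NP libraries (log2 fold change 0.98 ± 0.16, edgeR adjusted p = 0.0014). Scaled by library size alone the change of Jak2 was 0.50 (edgeR adjusted p = 0.0115), and on unfiltered FPKM values it was 0.47 and not called (limma adjusted p = 0.0724). Jak1 (0.63 ± 0.13) and Ifngr2 (0.41 ± 0.10) also rose under TMM, but scaled by library size alone Jak1 was not called (0.15) and Ifngr2 turned to -0.061. The value for Tyk2 was -0.29 ± 0.14 (edgeR adjusted p = 0.126).

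Among 6 other interferon regulatory factors, 4 fell and 0 rose. They included Irf5 (log2 fold change -1.21 ± 0.25) and Irf8 (-1.06 ± 0.25), both typical of myeloid cells, and Irf4 (-0.90 ± 0.23), a factor of lymphocytes. On unfiltered FPKM values Irf5 was not called (limma adjusted p = 0.0606). Irf2 (0.097 ± 0.10) and Irf3 (-0.16 ± 0.092), the factor that starts the interferon response, did not pass the test. Of 13 nucleic acid sensors and adaptors, 9 fell and 1 rose. Tmem173, which encodes STING, fell by 1.30 ± 0.20, Ddx58, which encodes RIG-I, by 1.11 ± 0.17 and Ifih1, which encodes MDA5, by 0.87 ± 0.13 on the log2 scale. The adaptor Mavs rose by 0.50 ± 0.11 but stood at 0.031 when scaled by library size alone. Adjusted p-values from edgeR for the named genes called in these lists lay at or below 0.00998.

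The enzymes that attach Isg15 to proteins fell with it. Of 5 tested, 4 were called lower and 0 higher. Uba7, the activating enzyme, had 16.1, 10.04 and 10.9 CPM in HP replicates 1 to 3, against 17.8, 25.9 and 21.3 CPM in NP replicates 1 to 3, without overlap (log2 fold change -0.81 ± 0.20, edgeR adjusted p = 0.01). Ube2l6, the conjugating enzyme (-0.68 ± 0.19), and the ligases Herc6 (-0.86 ± 0.20) and Trim25 (-0.65 ± 0.12) were also called lower (edgeR adjusted p = 0.0147, 0.00659 and 0.00285). Ube2l6 lost its call without HP replicate 1 or HP replicate 3 (edgeR adjusted p = 0.0583 and 0.0607). Usp18, the protease that removes Isg15 again and restrains the type I receptor, stood at -0.28 ± 0.19 (edgeR adjusted p = 0.246). Of 8 negative regulators of the pathway, 2 fell, Socs3 (-1.52 ± 0.13) and Ptpn6 (-2.25 ± 0.32), and 1 rose, Ptpn11 (0.62 ± 0.11, but 0.15 and not called with library size alone, and -0.037 on FPKM values). Their edgeR adjusted p-values were 0.000208, 0.00117 and 0.00249.

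Of 46 other type I interferon-stimulated genes tested, 33 fell and 0 rose, with a median log2 fold change of -0.81. Ifi27l2a, a relative of Ifi27, had 32.3, 53.8 and 39.8 CPM in HP replicates 1 to 3, against 193, 123 and 168 CPM in NP replicates 1 to 3. The diets were far apart, and HP replicate 1 was the lowest library, unlike for Ifi27. Its log2 fold change was -1.95 ± 0.22 (edgeR adjusted p = 0.000549). Samd9l (-1.02 ± 0.13) and Sp100 (-0.93 ± 0.13), a nuclear body component, fell as well (edgeR adjusted p = 0.000662 and 0.000942).

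**Figure D3:**
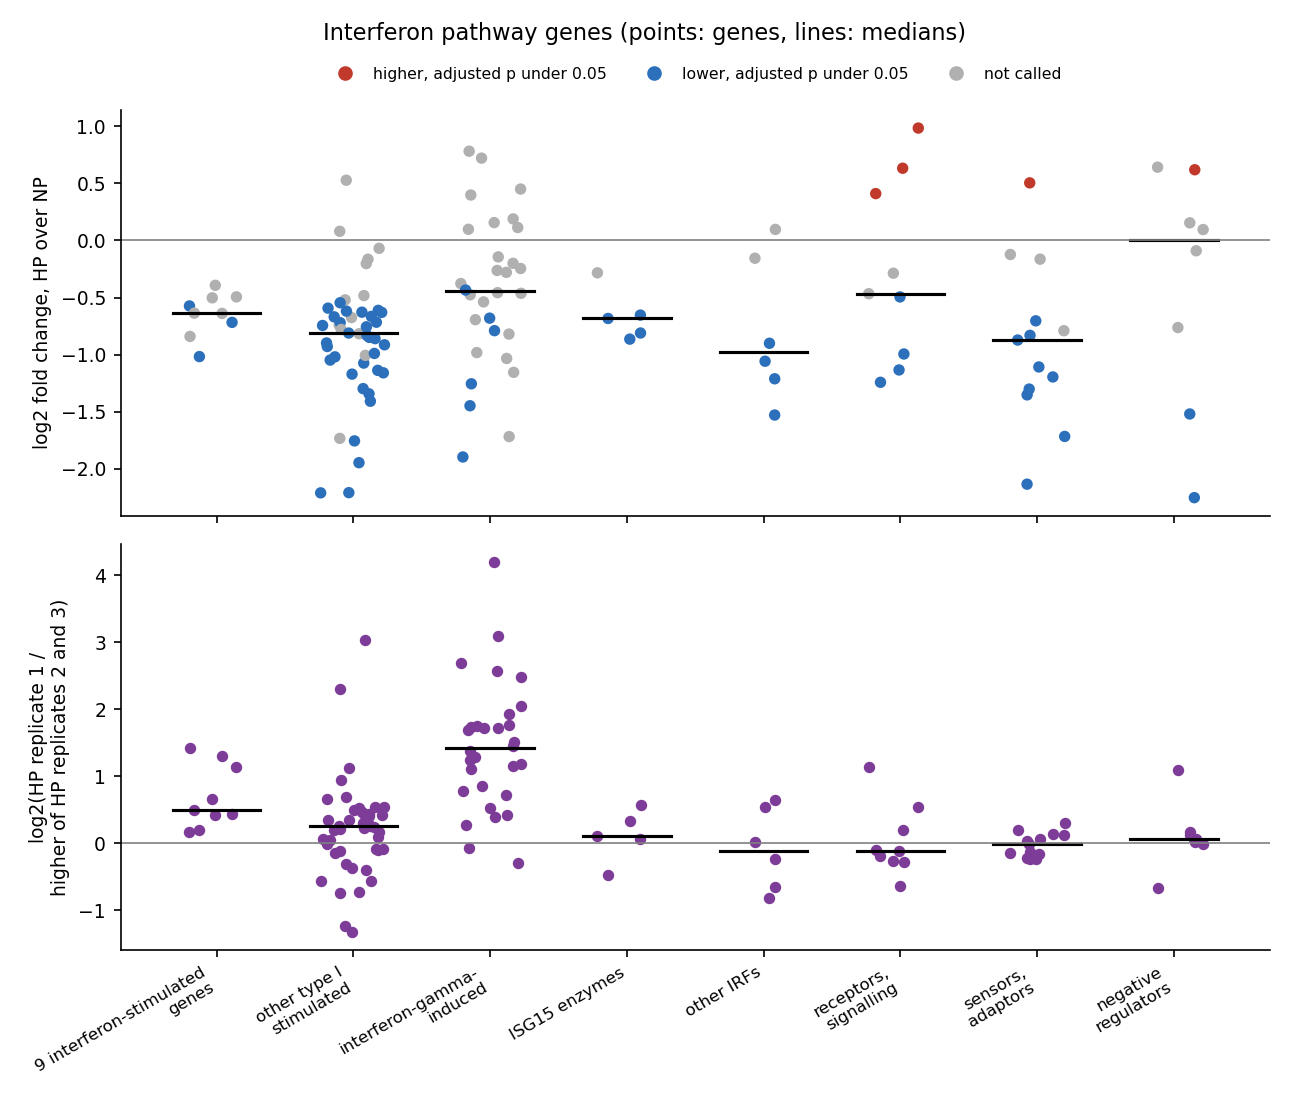
Top, log2 fold changes, HP over NP, of the 9 genes and of every tested gene in the pathway lists, coloured by edgeR call; bottom, log2 of the level in HP replicate 1 over the higher of the other HP libraries. Each point is a gene and each line a median; the median fold change is -0.81 for other type I genes and -0.45 for interferon-gamma-induced genes, whose points lie highest in the bottom panel.

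HP replicate 1 differed from the other HP libraries most often in the interferon-gamma-induced genes. Of 30 tested, 6 fell (Ciita, Nlrc5, Psmb8, Psmb10, Tap2 and Gbp9) and 0 rose, with a median log2 fold change of -0.45. The share that fell, 20.0%, was below the 26.3% of all genes tested. Ciita, the master regulator of class II histocompatibility genes, fell by 1.90 ± 0.42, the peptide transporter subunit Tap2 by 0.68 ± 0.17 and the proteasome subunit Psmb10 by 0.43 ± 0.12 on the log2 scale (edgeR adjusted p = 0.00867, 0.00959 and 0.014). Ciita was not called without a filter on low counts (edgeR adjusted p = 0.0763) or on unfiltered FPKM values (limma adjusted p = 0.0523). Without HP replicate 1, 23 of the 30 were called lower and 0 higher, against 21.1% of all genes called lower in that fit. HP replicate 1 was the highest HP library for 28 of the 30, so that fit is no independent test of the list. Without NP replicate 2 the number called lower was 3 (Ciita, Tap2 and Psmb10), against 22.2%. It was 4 without HP replicate 2, 3 without HP replicate 3, 6 without NP replicate 1 and 4 without NP replicate 3. The backgrounds in these fits were 21.6%, 21.2%, 25.8% and 24.1%, in that order. Without HP replicate 2, 12 of the 30 changes were positive and the median was -0.089. With HP replicate 3 left out, with DESeq2 and with the replicate number as a block, 1 gene of the list was called higher. Psmb10 lost its call without HP replicate 2 or HP replicate 3 (edgeR adjusted p = 0.06 and 0.0656). In HP replicate 1, 21 of the 30 (70.0%) were at least 2-fold above both other HP libraries, which held for 3 of the 9 genes (Stat2, Irf1 and Irf7), 3 of the 46 other type I genes (Mx1, Oas3 and Zbp1) and 1.12% of all genes tested. HP replicate 1 was the highest of all 6 libraries for 16 of the 30 (53.3%; 21.6% of all genes tested). This compares 1 library with others of its diet and has no test.

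The size of this gap is shown by 4 genes of these lists that were named after their values were seen. The GTPase Iigp1 had 116, 11.9 and 13.6 CPM in HP replicates 1 to 3, against 53.1, 65.4 and 37.9 CPM in NP replicates 1 to 3. Igtp, a related GTPase, had 60.7, 14.7 and 11.0 CPM in HP libraries, against 19.7, 25.5 and 18.3 CPM in NP libraries. Both were highest in HP replicate 1 and lowest in the other HP libraries. The chemokine Cxcl10 had 4.58, 0.713 and 0.312 CPM in HP libraries, against 2.22, 3.72 and 1.46 CPM in NP libraries. Zbp1, a sensor of unusual nucleic acids, had 7.10, 0.866 and 0.727 CPM in HP libraries, against 5.33, 8.57 and 3.84 CPM in NP libraries. From all libraries none of these 4 was called (edgeR adjusted p = 0.907, 0.597, 0.74 and 0.363 in that order). Without HP replicate 1 the log2 fold changes of these 4 were -2.02, -0.71, -2.24 and -2.87. The genes were picked for their gap in that library, so this fit is no independent test of them.

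Cell type markers moved between the diets as well, where 23.0% of all genes tested were called higher and 26.3% lower. The muscle fibre markers were present in all libraries and higher in HP, with 6 of 8 called higher and a summed level of 173334 to 217768 CPM in HP and 67056 to 96894 CPM in NP. Of 10 macrophage markers, 9 were called lower and 1, Cd163, higher, and their sum was 393 to 582 CPM in HP and 1043 to 1980 CPM in NP. All 7 B cell markers and all 7 T cell markers were called lower (sums of 1.05 to 2.04 and 1.56 to 2.90 CPM in HP, and of 10.5 to 68.9 and 12.5 to 37.9 CPM in NP). So were 6 of 7 endothelial markers (493 to 687 CPM in HP, 805 to 947 CPM in NP), 6 of 6 fibroblast markers (1902 to 2154 CPM in HP, 3773 to 8182 CPM in NP) and 6 of 6 white adipocyte markers (216 to 419 CPM in HP, 1281 to 1910 CPM in NP). The part of these cell types in the values of the 9 genes was not tested.

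Among the rarer immune cells, 3 of 4 NK cell markers tested (Klrb1c, Prf1 and Eomes) were called lower (0.312 to 1.33 CPM in HP, 2.45 to 6.06 CPM in NP). Plasmacytoid dendritic cells are known as the main source of type I interferon. Of their markers, 1 of 3 tested, Ly6d, was called lower (sums of 2.34 to 2.70 CPM in HP, 3.33 to 11.7 CPM in NP). That share, 33.3%, was near the 26.3% of all genes tested. The log2 fold change of Ly6d was -5.23, beside a median of -4.69 over the 7 B cell markers. Siglech (-0.49) and Ccr9 (-0.999) were not called (edgeR adjusted p = 0.248 and 0.0703). Whether the fall of Ly6d reflects plasmacytoid dendritic cells was not tested. Dendritic cell markers fell for 3 of 6, Flt3, Clec9a and Itgax (27.0 to 28.3 CPM in HP, 29.9994 to 40.8 CPM in NP) and neutrophil markers for 2 of 4 tested, Retnlg and Csf3r (3.69 to 5.96 CPM in HP, 8.64 to 10.9 CPM in NP), with the neutrophil marker Ly6g at 0 counts in all libraries. Pericyte and smooth muscle markers fell for 2 of 5 (Pdgfrb and Cspg4) and Schwann cell markers for 1 of 5 (Pmp22). Within the HP diet, the macrophage sum was 497 CPM in replicate 1, 582 CPM in replicate 2 and 393 CPM in replicate 3, and the T cell sum was 2.11, 2.90 and 1.56 CPM. Replicate 1 was thus not the highest HP library for either, whereas its NK cell sum of 1.33 CPM stood above 0.408 and 0.312 CPM in replicates 2 and 3. With 21.8, 19.6 and 19.3 counts per CPM in HP replicates 1 to 3, these NK cell sums rest on too few reads to compare. The muscle fibre sum was also highest in replicate 1, with 217768, 173334 and 175289 CPM in replicates 1 to 3, as were, by small margins, the dendritic cell sum (28.3, 28.02 and 27.0 CPM) and the plasmacytoid dendritic cell sum (2.704, 2.34 and 2.700 CPM). The part of these cells in the levels of HP replicate 1 was not tested.

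**Figure D4:**
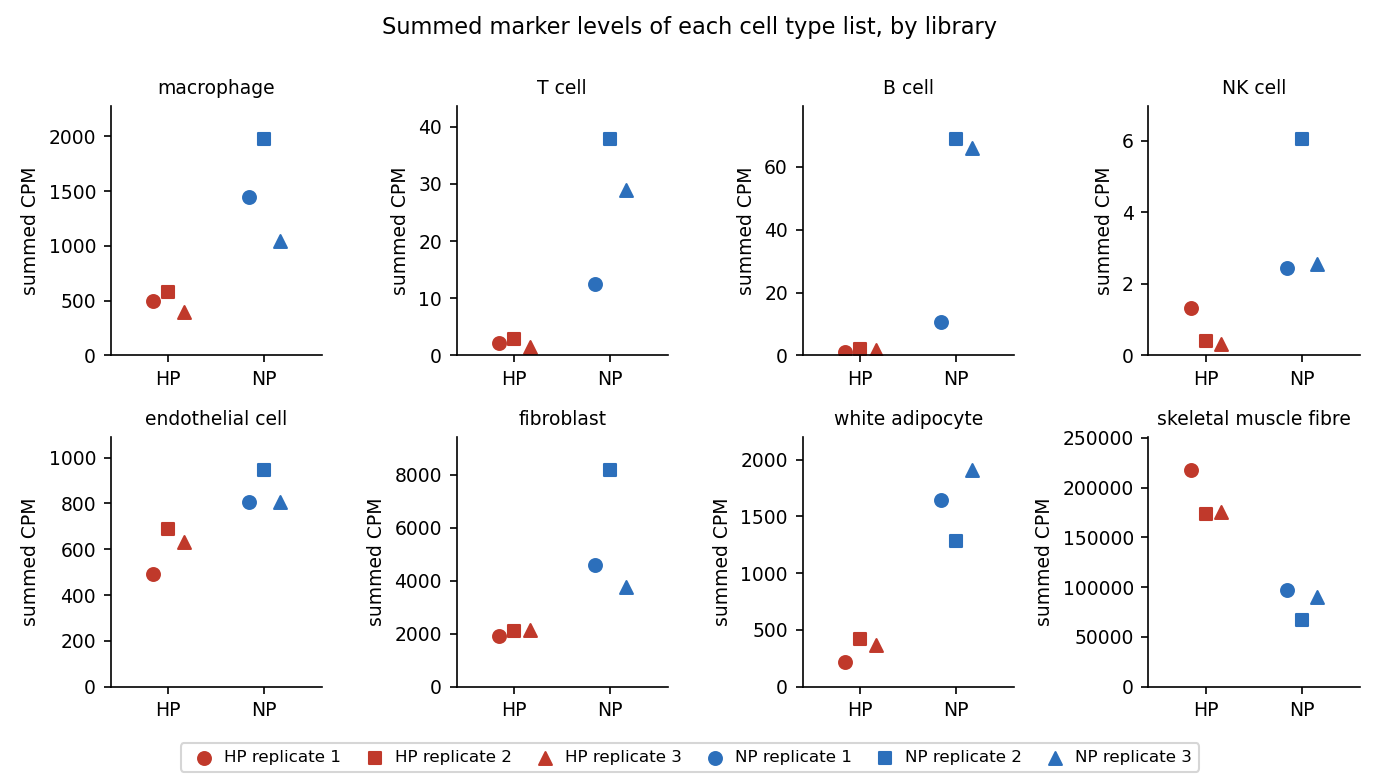
Summed level of each cell type marker list in each library for 8 cell type lists, as TMM-scaled CPM on an axis of its own that starts at 0, HP left of NP. The muscle fibre sum is higher in all 3 HP libraries than in any NP library, and the other 7 sums are lower in all 3.

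The libraries held 21856006 to 27474251 counts in HP and 21968552 to 23722802 counts in NP, and the lowest count among the 9 genes was 35, for Isg15 in HP replicate 3. The first principal component (77.3% of the variance) separated the diets, and the second (7.28%) set HP replicate 1 (31.7) apart from HP replicates 2 and 3 (-22.1 and -9.27), with NP libraries between -3.73 and 1.98. No 2 libraries of a diet agreed within sampling noise: the chi-square per degree of freedom between them was 18.1 to 58.0.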

How the data were processed

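RNA from 6 gastrocnemius libraries was analysed from 2 deposited tables. The first table holds the authors' deposited gene counts, whole numbers that are not normalized. The authors also deposited FPKM values, for 38011 genes, by a tool not given in the sources used here. The submitters' processing notes name GRCm38, featureCounts 1.4.6, HISAT2 2.0.1, DESeq2 1.6.3 and Trim Galore 0.4.1, without their roles. The strand setting is not given in the sources used here.

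The counts were fitted across all genes with edgeR 4.0.16 (R 4.3.3), using TMM, filterByExpr and the robust quasi-likelihood test, and p-values were adjusted over 15347 genes. SEs are approximate, from the log2 fold change and the F statistic (change over root F). The median SE was 0.16, and the common biological coefficient of variation was 0.161. Alternatives used DESeq2 1.42.0, limma 3.58.1 with voom, and limma on log2(FPKM + 1) and log2(FPKM + 0.1) for genes with a mean of at least 0.1 FPKM. A fold change on that scale understates that of low genes. The fit was also run on simulated data with few genes changed, as many up as down. Such data cannot test the scaling between these libraries.

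The 9 genes and all lists were chosen with earlier results of these data known. Named were the 9 genes, every receptor and kinase tested, up to 3 genes called in each direction from each other pathway list by smallest p, the 5 genes most alike in profile, and genes behind counts of 5 or fewer; a few genes that these rules name are not reported here. Iigp1, Igtp, Cxcl10, Zbp1 and Ifit3b were named after their values were seen. Gene positions come from GENCODE vM21 and promoters from RefSeq. No library was left out.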

Additional observations from a re-analysis of the deposited data

How the results depend on the processing

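Of the 9 genes, 3 were called lower under size factors in the style of DESeq2, 1 CPM in 3 libraries, no filter on low counts, DESeq2 and limma-voom, and on log2(FPKM + 1) without a filter; of all genes, 25.8%, 27.8%, 15.2%, 19.4%, 25.8% and 15.8% were called lower in these fits, in that order. The number was 9 with library size alone (51.4% of all genes), 6 on log2(FPKM + 1) (31.8%), 7 on log2(FPKM + 0.1) (34.1%), and 1 to 8 when each library was left out in turn. With the replicate number as a block it was 5 (25.5%, Irf7 and Ifit3 added). The labels do not say what the number marks. Deviations of same-numbered libraries correlated at -0.0215, 0.0223 and 0.0188, but 3 libraries per diet are too few to settle whether the diets were paired. All 9 log2 fold changes were negative under every alternative run. Over all genes tested, changes were negative for 7852 of 15347 under TMM and for 12361 of 15347 with library size alone. On log2(FPKM + 1) they were negative for 16040 of 20256, so the sign alone says little under these scalings. Of the other pathway genes, 1 was called higher with library size alone, 1 on log2(FPKM + 1), 1 on log2(FPKM + 0.1) and 0 without the FPKM filter. Over all genes, 878, 756, 796 and 566 were called higher under these 4, and 7886, 6447 and 6910 lower under the first 3, of 15347, 20256, 20256 and 31447 tested. Signs turned with library size alone for Ifngr2 (-0.061), Igtp (-0.088) and Irf2 (-0.37). On FPKM values (pseudocount 1, 0.1, and 1 without a filter) they turned for Ifngr2 (-0.031, -0.032, -0.031), Ptpn11 (-0.037, -0.038, -0.037), Igtp (-0.33, -0.40, -0.33), Ifit3b (-0.22, -0.29, -0.22) and Irf2 (-0.35, -0.39, -0.35). Leaving out each library gave -2.02 to 0.33 for Iigp1, -0.71 to 0.85 for Igtp and -2.24 to 0.13 for Cxcl10. The cause of these changes was not tested. With 3 libraries per diet, single libraries weigh heavily, and genes of a few CPM rest on few reads.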
